A study of Homo sapiens with 3 samples.

Results

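The BCL2 family sets the threshold at which a cell commits to death through its mitochondria. The 10 family genes described here were chosen by name from the family, with earlier results of these data known: the pro-survival genes BCL2L1 (BCL-XL), MCL1 and BCL2L2 (BCL-W), the pore-forming effectors BAX and BAK1, and the BH3-only genes BID, BAD, BCL2L11 (BIM), BBC3 (PUMA) and PMAIP1 (NOXA). All 10 were found, each as 1 row, among the 58735 genes of the count tables. RNA was sequenced from A549, an established human lung adenocarcinoma cell line, after lentiviral transfer of a control vector (Control-sh) or of either of 2 shRNAs against DDX24, an RNA helicase gene (DDX24-sh1 and DDX24-sh2). All 3 lines had been selected with puromycin and were kept in it, so they share the vector backbone and the drug. The study describes the control both as the empty vector and as a control shRNA, and which of these the control library carries is not known. Each condition is 1 library from 4 μg of total RNA, with no replicate, so no test between conditions was possible, and every interval below is a 95% interval that covers counting error only. Both shRNA libraries were set against the same control library, so their ratios are not independent.

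The control library held 17218884 counts, the DDX24-sh1 library 18337471 and the DDX24-sh2 library 17847190. DDX24 stood at 29.6% and 36.0% of the control level in DDX24-sh1 and DDX24-sh2. Mitochondrial genes took 4.36%, 5.13% and 7.04% of these counts. All 6 lung epithelial markers had at least 1 CPM (counts scaled to a common library size) in each library, whereas the alveolar type II markers, NKX2-1 among them, and the leukocyte markers stayed below 1 CPM, with PTPRC at 0 in each library. Summed fibroblast markers ranged from 9.78 to 13.9 CPM, nearly all of it COL1A1 and LUM. With the 2 shRNA names exchanged, the deposited FPKM (expression per length and library size) matched counts to within 1% for 100% of 11641 genes, against 5.33% and 5.32% with the labels as given. Which label is right is not known, and the shRNA names used here are those of the counts.

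In living cells the pro-survival proteins hold BAX and BAK1 in check. BH3-only proteins, made or activated under stress, bind the groove of the survivors through a short helix, the BH3 domain, or activate BAX and BAK1 directly, and oligomers of these then open the outer mitochondrial membrane and release cytochrome c to the caspases. NOXA binds mainly MCL1 and its relative BCL2A1, BAD binds BCL-XL, BCL-W and BCL2, and PUMA and BIM bind all of the survivors. Transcription is a main control of PUMA and NOXA. Stress responses that run through ATF4 and CHOP are among several routes that induce both.

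The BH3 core is a short sequence that the family members share, and with it the BH3-only proteins bind the groove of the survivors. Its coding bases were located by translating 1 principal GENCODE 29 transcript of each gene and searching for a leucine followed after 3 residues by glycine, alanine or serine and then aspartate. The capitals mark the codon of that leucine and the codons of the small residue and the aspartate, and 4 flanking codons are shown on each side. All coordinates are on GRCh38, each stretch lies within 1 coding exon, and sequences are written 5′ to 3′ on the strand of the gene. The BBC3 core has alanine as its small residue and spans residues 141 to 146 (chr19:47226579-47226620, minus strand). The PMAIP1 core, in a protein of only 54 residues, spans residues 29 to 34 (chr18:59902661-59902702, plus strand). The BCL2L11 core spans residues 92 to 97 of BIM (chr2:111150091-111150132, plus strand). For the survivors, the MCL1 core lies at chr1:150578865-150578906 and the BCL2L1 core at chr20:31721922-31721963, both on the minus strand. BCL2L2 had no match until methionine was allowed in place of the leucine, and its stretch lies at chr14:23307891-23307932 on the plus strand.
BBC3: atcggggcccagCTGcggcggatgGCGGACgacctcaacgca
PMAIP1: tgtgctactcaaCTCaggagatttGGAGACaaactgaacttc
BCL2L11: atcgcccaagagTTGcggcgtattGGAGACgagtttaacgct
MCL1: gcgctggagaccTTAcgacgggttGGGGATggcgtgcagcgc
BCL2L1: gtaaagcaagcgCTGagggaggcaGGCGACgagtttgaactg
BCL2L2: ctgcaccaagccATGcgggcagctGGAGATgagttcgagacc

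BAX, BAK1 and BAD each held 1 such core as well, with serine as the small residue in BAD, and BID held 2 matches, of which the later one has the glycine. The pattern was relaxed only for BCL2L2, which had failed the first search, so a match in all 10 genes was not a test. How often other proteins hold so short a pattern was not examined.

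In the DDX24-depleted libraries, 2 of the 10 genes lay at least 1.5-fold below the control in both libraries, and both were BH3-only genes, BBC3 and PMAIP1. The pro-survival genes BCL2L1 and BCL2L2 were lower in both libraries by smaller amounts, BAX was slightly higher in both, and MCL1 was lower in DDX24-sh1 only. No member was 1.5-fold higher in either library. Of the 13984 genes that averaged 1 CPM or more, 4.72% were 1.5-fold lower in both libraries and 4.23% were 1.5-fold higher in both. For DDX24-sh1 alone 8.25% of genes were lower and 7.59% higher by this fold, and for DDX24-sh2 alone 9.51% and 8.6%, and the members again numbered 2 lower and 0 higher in each. Ratios were taken between library-scaled counts (TMM, which assumes that most genes do not differ). The median log2 ratio of the members was -0.11 for DDX24-sh1 and -0.18 for DDX24-sh2, against -0.02 and -0.03 for all genes. Bulk RNA cannot tell fewer expressing cells from less RNA per cell.

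**Figure D1:**
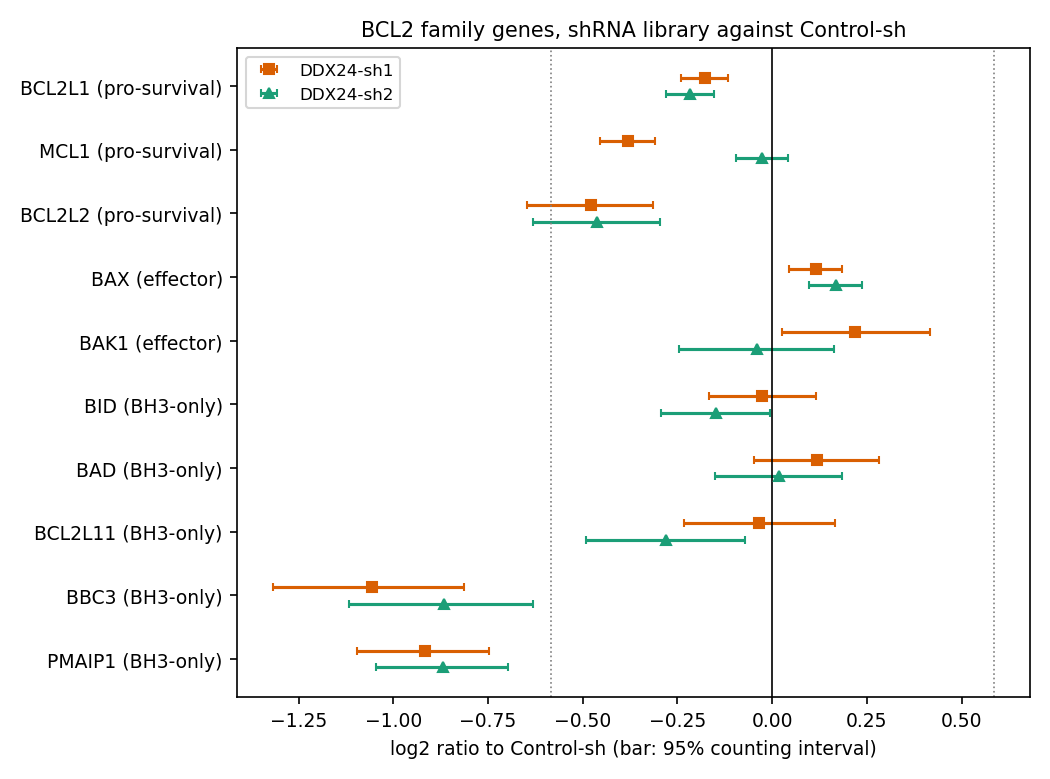
The log2 ratio of each of the 10 BCL2 family genes to Control-sh (x axis, TMM-scaled counts) in DDX24-sh1 (squares) and DDX24-sh2 (triangles), with bars for the 95% counting interval and dotted lines at 1.5-fold. BBC3 and PMAIP1 lie left of the lower dotted line in both libraries, and the other 8 genes lie between the lines.

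BBC3 encodes PUMA, which binds every pro-survival member. The gene (ENSG00000105327, chr19:47220822-47232766, minus strand) had 388 control counts, 199 with DDX24-sh1 and 224 with DDX24-sh2, or 22.7, 10.9 and 12.4 CPM. Both depleted libraries lay well below the control, at 48.1% and 54.8% of its level. The log2 ratio was -1.06 (interval -1.32 to -0.81) for DDX24-sh1 and -0.87 (interval -1.12 to -0.63) for DDX24-sh2. Only 1.96% and 4.18% of all genes had a lower ratio than BBC3 in these libraries. The 2 shRNA libraries could not be told apart for BBC3 at this depth, with an interval of -0.09 to 0.47 for DDX24-sh2 against DDX24-sh1.

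PMAIP1 encodes NOXA, the BH3-only protein that targets MCL1 and promotes its degradation. Its gene (ENSG00000141682, chr18:59899948-59904306, plus strand) had 749 control counts, 424 with DDX24-sh1 and 433 with DDX24-sh2, or 43.9, 23.2 and 24.0 CPM. The depleted libraries were close to each other and near a similar fraction of the control, 52.9% and 54.8%. The log2 ratio was -0.92 (interval -1.10 to -0.75) for DDX24-sh1 and -0.87 (interval -1.05 to -0.70) for DDX24-sh2, and 2.89% and 4.16% of all genes had a lower ratio. PMAIP1 shared no exon with an annotated gene and had no near-identical copy, so its counts had no competing assignment among annotated transcripts.

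The other 8 members lie, by the coordinates of the count tables, at chr20:31664452-31723989 (BCL2L1), chr1:150574551-150579738 (MCL1), chr14:23298790-23311759 (BCL2L2), chr19:48954815-48961798 (BAX), chr6:33572547-33580293 (BAK1), chr22:17734138-17774770 (BID), chr11:64269830-64284704 (BAD) and chr2:111119378-111168447 (BCL2L11). The remaining BH3-only genes stayed within 1.5-fold of the control. BCL2L11 encodes BIM, a strong activator of BAX and BAK1, and had 407 control counts, 426 with DDX24-sh1 and 354 with DDX24-sh2. It was level with the control in DDX24-sh1 (log2 ratio -0.03, interval -0.23 to 0.17) and lower in DDX24-sh2 (-0.28, interval -0.49 to -0.07). Of its exon bases, 10.9% lie opposite exons of the long noncoding RNA MIR4435-2HG, which had 390, 292 and 311 counts, and strand use in the counting is not given in the sources used here. The sum of all counts of both genes, which includes MIR4435-2HG reads outside the shared bases, gave -0.25 and -0.34. How many BCL2L11 counts came from the shared bases was not tested. BID, which links death receptors to mitochondria after cleavage by caspase-8, had 815, 858 and 777 counts, with a log2 ratio of -0.03 for DDX24-sh1 (interval -0.17 to 0.11) and -0.15 for DDX24-sh2 (interval -0.29 to -0.0061). BAD, whose activity is set by phosphorylation, had 566, 658 and 606 counts. Neither log2 ratio, 0.12 (interval -0.05 to 0.28) or 0.02 (interval -0.15 to 0.19), differed from 0 beyond counting error. Exons of GPR137 on the opposite strand, with 877, 861 and 790 counts, cover 23.7% of the BAD exon bases. The ratios of all counts of the 2 genes summed were -0.03 and -0.13.

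Among the pro-survival genes, BCL2L1 had the highest level and gave 4235 control counts, 4010 with DDX24-sh1 and 3851 with DDX24-sh2. At 248, 219 and 213 CPM it was modestly lower in both depleted libraries, at 88.4% and 86.0% of the control. The log2 ratio was -0.18 (interval -0.24 to -0.12) and -0.22 (interval -0.28 to -0.15). Counts per gene do not separate the long, protective BCL-XL transcript from the short, death-promoting BCL-XS transcript of BCL2L1, nor the MCL1 splice forms. The antisense gene ABALON covers 43.0% of the BCL2L1 exon bases and had 144, 119 and 84 counts.

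BCL2L2 was lower by a larger and nearly equal amount in the depleted libraries, with 677 control counts, 520 with DDX24-sh1 and 519 with DDX24-sh2. Its level was 71.8% and 72.6% of the control, and its log2 ratios were -0.48 (interval -0.65 to -0.31) and -0.46 (interval -0.63 to -0.30). The read-through gene BCL2L2-PABPN1 shares 19.4% of its exon bases but had only 3, 9 and 7 counts, and the summed ratios were -0.46 and -0.45. On the opposite strand, PPP1R3E covers 4.9% of the BCL2L2 exon bases. It had 86, 107 and 94 counts, which were not added to a sum.

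MCL1, a short-lived survivor whose loss is lethal to many lung cancer cells, differed between the depleted libraries. It had 3420 control counts, 2813 with DDX24-sh1 and 3551 with DDX24-sh2, or 200.4, 153.8 and 196.7 CPM. The DDX24-sh1 library lay at 76.8% of the control (log2 ratio -0.38, interval -0.45 to -0.31), while the DDX24-sh2 library lay at 98.2% (log2 ratio -0.03, interval -0.09 to 0.04). Set directly against DDX24-sh1, DDX24-sh2 was higher by 0.36 on the log2 scale (interval 0.28 to 0.43). In the deposited FPKM, with its exchanged labels, the lower MCL1 value is the one named DDX24-sh2.

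The effectors went in the other direction where they differed from the control. BAX had 3071 control counts, 3564 with DDX24-sh1 and 3648 with DDX24-sh2, and stood at 108% and 112% of the control. The log2 values, 0.11 (interval 0.04 to 0.19) and 0.17 (interval 0.10 to 0.24), both lay above 0 by a small margin. BAK1 had 390, 487 and 401 counts, which put it above the control with DDX24-sh1 (log2 ratio 0.22, interval 0.03 to 0.42) and level with it with DDX24-sh2 (-0.04, interval -0.25 to 0.16). The processed pseudogene BAK1P1, 98.3% identical over 636 nt, had 15, 19 and 11 counts, and adding the counts of both BAK1 pseudogenes gave 0.22 and -0.06.

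Counting intervals below 0 were found for 5 of the 10 members with DDX24-sh1, for 6 with DDX24-sh2 and for 4 with both shRNAs (BCL2L1, BCL2L2, BBC3 and PMAIP1). Of all genes, 29.5%, 30.8% and 20.6% had such intervals. Intervals above 0 were found for 2 members with DDX24-sh1, 1 with DDX24-sh2 and 1 with both, BAX, against 23.6%, 23.6% and 14% of all genes. These shares are not on equal terms, since the members had at least 388 counts in the control and intervals narrow with depth. Between the depleted libraries, MCL1 was higher in DDX24-sh2 and BAK1 and BCL2L11 were lower (log2 ratios -0.26, interval -0.46 to -0.07, and -0.25, interval -0.46 to -0.04). That is 1 member above and 2 below, against 21% and 23.8% of all genes.

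**Figure D2:**
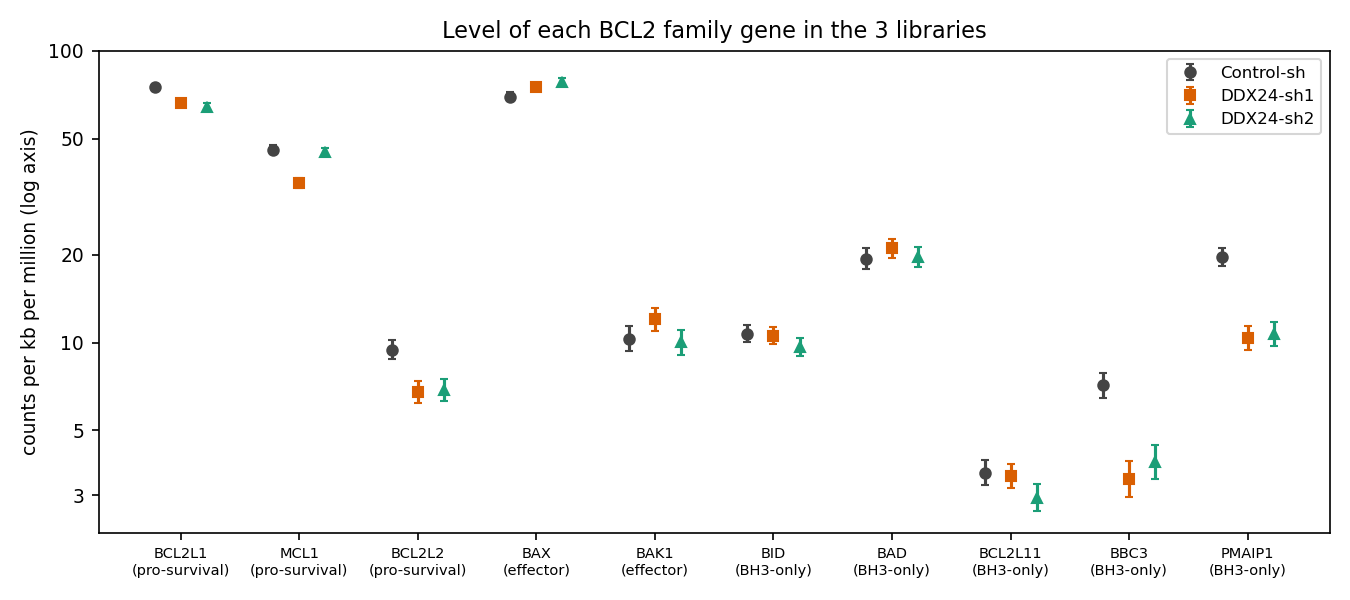
The level of each gene in scaled counts per kilobase of exon (y axis, log scale) in Control-sh (circles), DDX24-sh1 (squares) and DDX24-sh2 (triangles), with 95% counting intervals. BBC3 and PMAIP1 are lower in both depleted libraries than in Control-sh. Heights of different genes depend on the exon length used, and the order of BAX and BCL2L1 turns with it.

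Per length, on the scale of CPM per kilobase of exon, the control library ran from 74.9 for BCL2L1 through 69.6 for BAX and 45.8 for MCL1 to 3.58 for BCL2L11. PMAIP1 (19.6) and BAD (19.4) were not distinguishable from each other, nor were the neighbours BID (10.7), BAK1 (10.3) and BCL2L2 (9.47). BBC3 followed at 7.15. In the depleted libraries BAX was at 75.3 and 78.1 and BCL2L1 at 66.2 and 64.4, so their order differed from that in the control. This order rests on the lengths used, which merge all annotated exons (2587 bases for BAX and 3314 for BCL2L1). With the principal transcript lengths of 793 and 2578 bases, chosen after the values were seen, BAX was above BCL2L1 in each library, at 226.9, 245.7 and 254.9 against 96.2, 85.0 and 82.8. By CPM without any length, BCL2L1 was above BAX in each library. With merged lengths PMAIP1 stood below BAD and not apart from BID and BAK1 in the depleted libraries, at 10.4 and 10.7, and BBC3 was at 3.42 and 3.90 beside BCL2L11 at 3.50 and 2.95. The place of BCL2L11, last in the control with its 6658 merged bases, was 7 of 10 there with the 1522 bases of its principal transcript. Grouped by role after the values were seen, the effectors made up 29.5% of the summed level of the 10 genes in the control, 35.7% with DDX24-sh1 and 35.1% with DDX24-sh2. With principal transcript lengths these shares were 48.1%, 54.6% and 54.8%. The survivors made up 48.1%, 44.2% and 46.3% with merged lengths and 32.0%, 27.9% and 29.1% with principal lengths. Which group was largest thus depended on the length. The 5 BH3-only genes made up 22.4%, 20.01% and 18.7%, or 19.9%, 17.5% and 16.2% with principal lengths.

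Ratios of genes within 1 library need no scaling between libraries, and 7 pairs of a death gene and a survival partner were compared in this way. For every 100 MCL1 counts there were 21.9 PMAIP1 counts in the control, 15.1 with DDX24-sh1 and 12.2 with DDX24-sh2. The log2 change of this NOXA to MCL1 ratio was -0.54 (interval -0.73 to -0.35) and -0.84 (interval -1.03 to -0.66), lower in both. BBC3 against MCL1 went from 11.3 per 100 to 7.07 and 6.31, with log2 changes of -0.68 (interval -0.94 to -0.42) and -0.85 (interval -1.09 to -0.60). BCL2L11 against MCL1 had no common direction, with changes of 0.35 for DDX24-sh1 (interval 0.14 to 0.56) and -0.26 for DDX24-sh2 (interval -0.47 to -0.04). Against BCL2L1, BAX stood at 72.5 counts per 100 BCL2L1 counts in the control and at 88.9 and 94.7 in the depleted libraries, with log2 changes of 0.29 (interval 0.20 to 0.39) and 0.39 (interval 0.29 to 0.48). BAD against BCL2L1 changed by 0.30 (interval 0.12 to 0.47) and 0.24 (interval 0.06 to 0.41). BAK1 was higher against BCL2L1 by 0.40 (interval 0.20 to 0.60) and against MCL1 by 0.60 (interval 0.40 to 0.81) in DDX24-sh1, while in DDX24-sh2 the intervals of both changes held 0. The other pairs of the 7 effector and BH3-only members with MCL1 or BCL2L1 were added after the values were seen. BBC3 over BCL2L1 was lower in both libraries, from 9.16 per 100 to 4.96 and 5.82, with log2 changes of -0.88 (interval -1.14 to -0.63) and -0.66 (interval -0.90 to -0.41). PMAIP1 over BCL2L1 was also lower, by log2 changes of -0.74 (interval -0.92 to -0.56) and -0.65 (interval -0.84 to -0.47). BCL2L11 over BCL2L1, at 9.61, 10.6 and 9.19 per 100, had intervals that held 0 in both. BAD over MCL1 was higher in DDX24-sh1 by 0.50 (interval 0.32 to 0.68) but not in DDX24-sh2 (0.04, interval -0.13 to 0.22). BID was higher in DDX24-sh1 over MCL1, by 0.36 (interval 0.20 to 0.51), and over BCL2L1, by 0.15 (interval 0.0012 to 0.30). In DDX24-sh2 the BID changes were -0.12 and 0.07, and both intervals held 0. BAX over MCL1 was higher in both, by 0.50 (interval 0.40 to 0.60) and 0.19 (interval 0.10 to 0.29). BBC3 and PMAIP1 were thus lower, and BAX higher, against either survival gene.

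**Figure D3:**
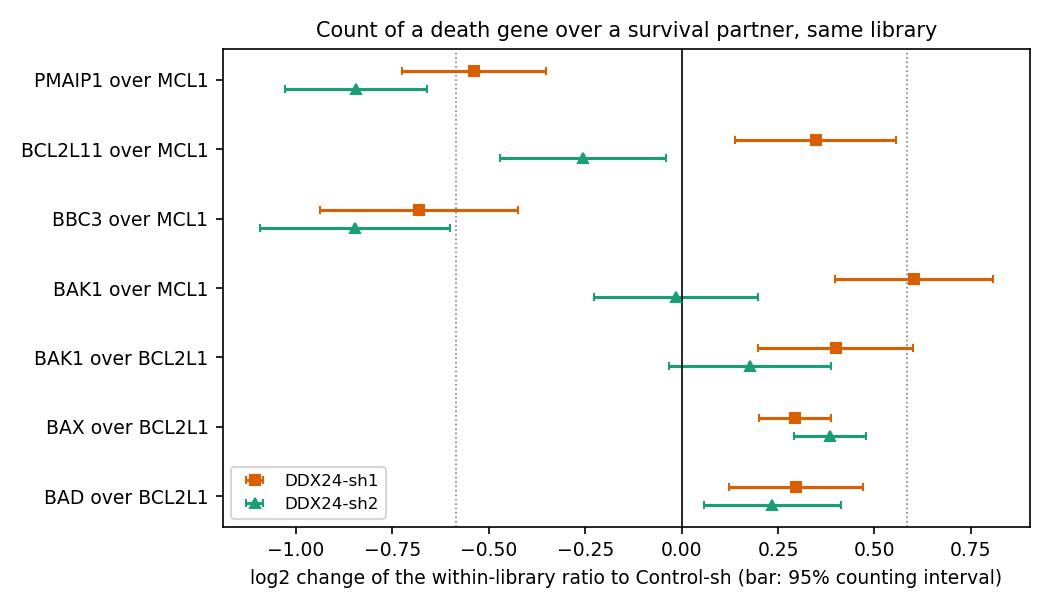
The log2 change, from Control-sh, of the count of a death gene over that of a survival gene in the same library (x axis) for the 7 pairs first chosen, in DDX24-sh1 (squares) and DDX24-sh2 (triangles), with bars for the 95% counting interval and dotted lines at 1.5-fold. PMAIP1 and BBC3 over MCL1 lie below 0 in both libraries, and BAX and BAD over BCL2L1 lie above 0 in both.

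Around these genes, 6 lists with 74 further genes of the pathway were examined, chosen with earlier results of these data known. Of the 74 genes, 65 averaged 1 CPM or more. Both libraries put 6 of the 65 at least 1.5-fold below the control and 0 above it, beside 4.72% and 4.23% of all genes. Taken singly, DDX24-sh1 had 8 lower and 0 higher, beside 8.25% and 7.59% of all genes, and DDX24-sh2 had 8 lower and 3 higher, beside 9.51% and 8.6%. The 13 other BCL2 family genes held 8 at this level, and 2 of these were lower in both. BCL2L12 had 699, 445 and 435 counts (log2 ratios -0.75 and -0.76). BMF, a BH3-only gene, had 121, 79 and 52 counts, at -0.70 on the log2 scale with DDX24-sh1 (interval -1.14 to -0.29) and -1.27 with DDX24-sh2 (interval -1.80 to -0.82). BCL2 itself was sparse, with 46, 35 and 33 counts, and its intervals held 0 in both libraries. The NOXA partner BCL2A1 had 115, 84 and 87 counts. Its log2 ratios were -0.54 (interval -0.98 to -0.13) and -0.47 (interval -0.90 to -0.07), within 1.5-fold of the control.

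Downstream of the membrane, 0 of 14 genes for the mitochondrial pathway and caspases passed 1.5-fold in both libraries, and their median log2 ratios were 0.12 and 0.08. Named after its values were known, CASP9, the initiator that the apoptosome activates, had 404, 274 and 302 counts (log2 ratios -0.66 and -0.50). The inhibitors of apoptosis, which restrain caspases, held 6 genes that averaged 1 CPM or more. Of these, 0 passed 1.5-fold in both libraries, and the medians were -0.26 and -0.23. BIRC3, an NF-kB target named after its values were seen, was lower in DDX24-sh1 (2096 to 1207 counts, log2 ratio -0.89) and less so in DDX24-sh2 (1806 counts, log2 ratio -0.30). In the death receptor pathway 0 of 10 genes passed in both, with medians of 0.18 and 0.18. FAS, the receptor for FAS ligand, was also named once its values were known, with 266, 400 and 596 counts, a log2 ratio of 0.49 with DDX24-sh1 (interval 0.26 to 0.72) and of 1.08 with DDX24-sh2 (interval 0.87 to 1.30).

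The regulators of the family fell into genes that differed strongly and genes that did not. The list of transcription factors was chosen with earlier results of these data known, so its count beside all genes is not a test. Of 13 transcription factors and their regulators at this level, 4 were at least 1.5-fold lower in both libraries, beside 4.72% of all genes. These were DDIT3, which encodes CHOP, with 898, 76 and 64 counts (log2 ratios -3.63 and -3.85), ATF3 with 457, 63 and 38 (log2 ratios -2.92 and -3.60), ATF4 with 7178, 4137 and 3818 (log2 ratios -0.89 and -0.99) and MYC with 3415, 2288 and 2356 (log2 ratios -0.68 and -0.62). MDM2, a ubiquitin ligase named after its values were known, had 1943, 2173 and 2402 counts (log2 ratios 0.06 and 0.23). DDIT3, ATF3, ATF4 and MYC were thus lower in both libraries, as were BBC3 and PMAIP1. Both libraries were set against the same control, so no shared pattern beyond this direction can be read. The part of these factors, or of any other regulator, in the BBC3 and PMAIP1 values was not tested. Among 14 protein partners and regulators 0 passed in both libraries, and the medians were 0.03 and 0.11. BAG3, a partner of HSP70, stood just on either side of the limit at 0.57 and 0.63, and PIM1, a kinase that phosphorylates BAD, had 708, 558 and 431 counts (log2 ratios -0.44 and -0.79), both named after their values were seen.

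**Figure D4:**
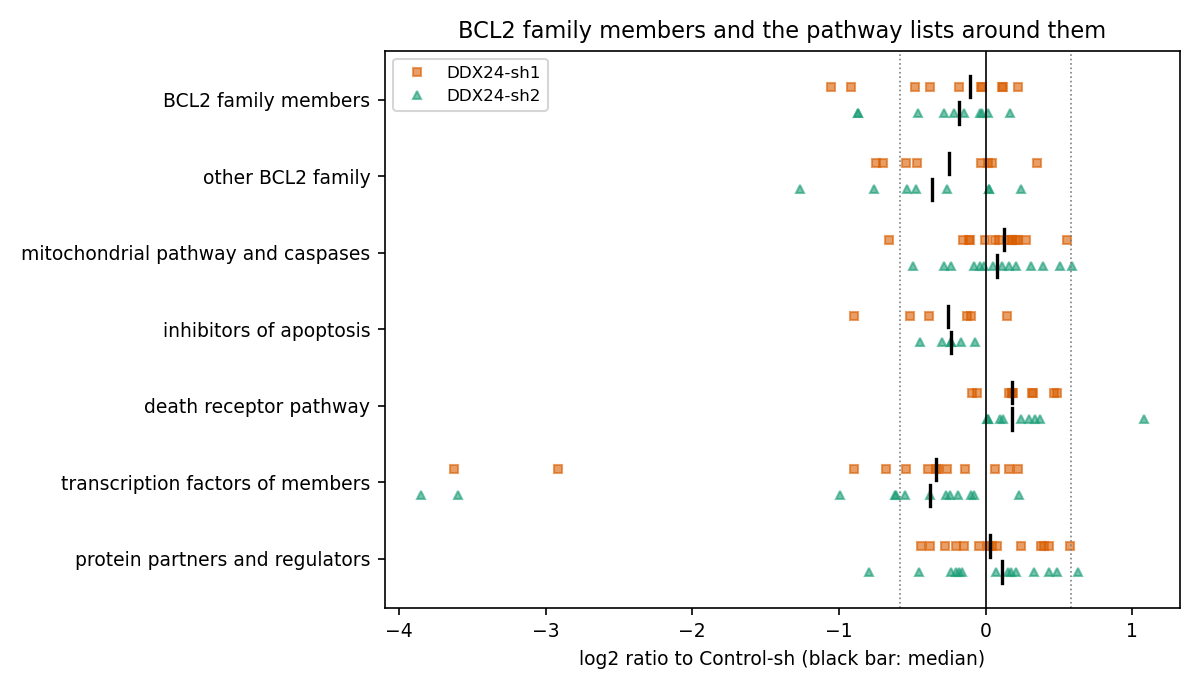
The log2 ratio to Control-sh (x axis) of each of the 10 members and of the genes of 6 pathway lists that averaged 1 CPM or more, in DDX24-sh1 (squares) and DDX24-sh2 (triangles), with a black bar for each median and dotted lines at 1.5-fold. The points farthest left are DDIT3 and ATF3 among the transcription factors, and the point farthest right is FAS in DDX24-sh2.

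The promoters of the members were searched in the RefSeq windows of 250 bases before to 50 after each start (GRCh38.p14), where 8 of the 10 members had an entry. Neither the cAMP response element TGACGTCA nor the element TGATGNAA, which ATF4 dimers can bind, was found on either strand in any window of a member. Of 35116 windows of all genes, 1.85% and 3.62% held them. At shares this low, no match in the few windows of the members was the likely outcome. Only exact matches were counted, so the search cannot show that a member lacks a site for these factors. MCL1 and BCL2L2 had no window.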

How the data were processed

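For each of the 3 libraries the deposited files give raw read counts by gene, not normalized, and the deposited FPKM, which the authors scaled by gene length and library size. The submitters' processing notes name Bowtie2 2.0.6, TopHat2 2.0.9, Cufflinks 2.1.1 and Cuffdiff 2.1.1. The counter and its strand setting are not given in the sources used here. All 58735 genes match GENCODE 29 (GRCh38) in identifier, start and end, and the gene lengths in the files, used for levels, equal the merged exon lengths of the members.

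Counts were scaled with edgeR 4.0.16 (TMM) in R 4.3.3, and log2 ratios of CPM were formed after adding a prior count of 2. Intervals are exact 95% conditional binomial (Clopper-Pearson) intervals for ratios, exact Poisson intervals for levels and Woolf intervals for within-library pairs. The intervals cover counting error only. No molecular identifiers were used in the counts, so amplified copies of a molecule count as separate reads and the intervals can be too narrow. No p-value was computed. The ratio steps were run on simulated libraries drawn from the control counts with counting error alone. That run therefore says nothing of variation between cultures. The limits were 1.5-fold and a mean of at least 1 CPM. Named were the members, DDX24, list genes past 1.5-fold in both libraries, and genes that copy a member or share at least 4.9% of its exons. BCL2, BCL2A1, CASP9, BIRC3, FAS, MDM2, BAG3 and PIM1 fall outside this rule and were named after their values were seen. Copies were searched with BLAST 2.17.0 at 90% identity over 150 nt. No genes were ranked by likeness to a member, because 3 libraries give no pattern to rank by. The members and lists were chosen with earlier results of these data known. The BH3 core was searched in coding sequences of GENCODE 29, in place of the planned RefSeq proteins. Values of 2 further list genes are not reported here. Figures were drawn with matplotlib 3.10.9.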

Additional observations from a re-analysis of the deposited data

How the results depend on the processing

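With 1 library per condition no library could be left out. No paired analysis was possible because no condition has a replicate, so differences between cultures and between shRNAs cannot be told apart. With DESeq2 1.42.0 size factors, total counts, a prior count of 0.5 or the FPKM with the shRNA labels exchanged, all 20 ratios of the members stayed inside their counting intervals. BBC3 and PMAIP1 were the 2 members lower by 1.5-fold under each scaling and in both forms of the FPKM. At a threshold of 2-fold, 1 member was lower in DDX24-sh1, 0 in DDX24-sh2 and 0 in both. Scaling by total counts without mitochondrial genes moved 3 ratios in DDX24-sh2 (BCL2L1 to -0.15, MCL1 to 0.04 and BAX to 0.24). The FPKM as labelled moved MCL1 to -0.02 (DDX24-sh1) and -0.37 (DDX24-sh2), BCL2L11 to -0.26 and -0.02, and BAK1 to -0.031, a reversed sign, and 0.23. The sums with ABALON, MIR4435-2HG and GPR137 were chosen after seeing the data. Of these, 1 value moved, BCL2L11 in DDX24-sh1 to -0.25.

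The level of BAX over BCL2L1, on the log2 scale, was -0.11 in the control, 0.19 with DDX24-sh1 and 0.28 with DDX24-sh2. With principal transcript lengths, added after seeing the data, it was 1.24, 1.53 and 1.62, and with CPM alone -0.46, -0.17 and -0.078. The length cancels in every ratio of 1 gene between libraries.

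The share of all genes past 1.5-fold depended on the filter. With no filter it was 14.3% higher and 16.9% lower with DDX24-sh1, 16.96% and 16.2% with DDX24-sh2, and 7.04% and 9.59% with both. With a mean of at least 10 CPM, the higher shares were 3.52%, 3.48% and 1.66%. Of the other BCL2 family genes, 1 in place of 2 was then lower in each library and in both. With DESeq2 size factors, 1 protein partner, BAG3, was higher in both libraries.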
